A study of Mus musculus with 8 samples.

Results

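The genes described here are the 10 that encode the cone phototransduction cascade. They are the opsins Opn1sw and Opn1mw, the cone arrestin Arr3, the transducin subunits Gnat2, Gnb3 and Gngt2, the phosphodiesterase subunits Pde6c and Pde6h, and the channel subunits Cnga3 and Cngb3. They were chosen by name, and a probe was taken as theirs where its RefSeq accession belonged to 1 of these genes. This gave 18 of the 56605 probes on the array. Of the 18 probes, 17 were bright enough to be tested, and all 10 genes had at least 1 of them, out of 14850 named genes with a tested probe.

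Gene expression was measured on single-color arrays in photoreceptor cells of C57BL/6 mice at postnatal day 8, with 4 arrays labelled Lpcat1 HZ, for heterozygous mice, and 4 labelled Lpcat1 KO. The heterozygous mice were the controls and carry a deleted allele themselves. Lpcat1 encodes an enzyme that attaches palmitate to lysophosphatidylcholine to make phosphatidylcholine, a membrane lipid, and its loss leads to photoreceptor death, so the comparison asks which genes differ in photoreceptors when that death begins. Per the study's methods, the KO line came from a C57BL6/N background and was crossed to C57BL6/J to remove homozygous rd8, a mutation of Crb1. Retinas were dissociated with trypsin, and cells carrying CD73, a surface marker of photoreceptors encoded by Nt5e, were collected with magnetic beads. How many animals went into an array is not given in the sources used here, so p-values measure the spread between these arrays, which may be partly technical. All 8 arrays lay on 1 slide, with KO in row 1 and HZ in row 2. Slide row and genotype therefore cannot be told apart, and the replicate number was also the slide column.

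In a cone, light activates an opsin, the opsin loads GTP onto the G protein transducin, and transducin relieves the inhibition of the phosphodiesterase PDE6. Cyclic GMP then falls, the cyclic nucleotide-gated channel closes and the cell hyperpolarises. Rods use the same cascade with their own gene for nearly every step, and in the mouse retina rods far outnumber cones. In the mouse the short-wave opsin appears before the medium-wave opsin, which rises after birth under the control of thyroid hormone.

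The sequences upstream of the cone genes are shown as a description of the members. Their relation to the shared movement of members between arrays, described further on, was not tested. RefSeq promoters of GRCm38.p6 were at hand for 6 of the 10 genes, in 7 windows. They were searched on both strands for TAATCC, the core of the sites that the photoreceptor homeodomain proteins CRX and OTX2 bind, for its variant TAATCT, added after the sequences were seen, and for AGGTCA, the hexamer that nuclear receptors recognise, such as the thyroid hormone receptor. The 4 windows below are the 250 bases before the transcription start, 5′ to 3′ on the strand of the gene, with matches on either strand in capitals. They lie at chr6:29380514-29380763 on the minus strand for Opn1sw, and on the plus strand at chrX:74127216-74127465 for Opn1mw, chrX:100605247-100605496 for Arr3 and chr3:108092816-108093065 for Gnat2.
Opn1sw: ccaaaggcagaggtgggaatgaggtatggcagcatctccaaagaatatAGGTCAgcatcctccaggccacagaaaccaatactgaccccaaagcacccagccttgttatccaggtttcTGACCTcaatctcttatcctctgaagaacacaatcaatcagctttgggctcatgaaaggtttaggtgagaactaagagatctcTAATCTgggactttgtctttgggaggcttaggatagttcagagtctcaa
Opn1mw: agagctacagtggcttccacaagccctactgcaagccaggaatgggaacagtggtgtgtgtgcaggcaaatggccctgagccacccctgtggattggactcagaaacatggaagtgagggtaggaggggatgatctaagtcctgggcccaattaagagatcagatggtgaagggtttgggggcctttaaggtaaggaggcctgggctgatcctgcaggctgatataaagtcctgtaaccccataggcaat
Arr3: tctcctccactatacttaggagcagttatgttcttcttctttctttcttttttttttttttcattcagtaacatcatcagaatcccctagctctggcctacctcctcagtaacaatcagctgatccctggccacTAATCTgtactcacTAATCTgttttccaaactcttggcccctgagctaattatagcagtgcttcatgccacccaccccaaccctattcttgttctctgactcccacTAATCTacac
Gnat2: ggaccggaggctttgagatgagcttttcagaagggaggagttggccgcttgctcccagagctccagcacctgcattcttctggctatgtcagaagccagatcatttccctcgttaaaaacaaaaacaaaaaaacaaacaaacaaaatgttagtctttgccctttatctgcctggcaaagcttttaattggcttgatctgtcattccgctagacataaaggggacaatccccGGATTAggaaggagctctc
In the Opn1sw window TAATCT began 49 bases before the start, AGGTCA began 202 bases before it and its reverse complement TGACCT 132 bases before it. The Arr3 window held TAATCT at 116, 102 and 10 bases before the start. The Gnat2 window held GGATTA, the reverse complement of TAATCC, at 19 bases before the start. The windows of Opn1mw, Pde6h and Cnga3 held none of these letters. Of 32851 promoter windows of this length, 6.25% held TAATCC, 7.31% held TAATCT and 14.0% held AGGTCA on either strand. A match is a description of the letters and not of a bound site.

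Values are log2 signal after the 75th percentile of each array was subtracted, called normalized log2 signal, and each difference is KO minus HZ on that scale. The scanner software marked 59.5% to 64.6% of the probes on each array as well above background and 0 spots as saturated. The highest share was that of HZ replicate 4, whose 75th percentile, 882 intensity units, was the lowest. This array also had 458 spots flagged for uneven signal. The next highest count of such spots was 25, on KO replicate 4, and HZ replicate 1 had 5. The part of spot quality in the cone values was not tested. The single Lpcat1 probe had a normalized log2 signal of -0.81, -0.95, -1.02 and -1.17 on HZ replicates 1 to 4 and of -0.97, -1.16, -1.11 and -0.85 on KO replicates 1 to 4. These ranges overlapped. KO minus HZ was -0.037 (limma adjusted p = 0.931, standard error 0.11), so this probe did not tell the genotypes apart and they are given as labelled. The part of the transcript that the probe reads was not set against the deletion. Nt5e, which encodes CD73, lay between 4.05 and 4.39 on all 8 arrays. The main probe of every cone gene, and those of the rod genes Sag and Nrl, were well above background on 8 of 8 arrays.

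No cone gene was called different between the genotypes. With limma, 0 of the 10 genes passed an adjusted p under 0.05 together with a fold change over 1.2, against 0% of the 34306 tested probes. The looser pair of thresholds, an adjusted p under 0.5 together with a fold change over 1.5, also called 0 of the 10, against 1.04% of the tested probes. At an unadjusted p under 0.05 limma counted 1 of the 10, Cngb3, against 8.17% of the tested probes in either direction and 4.69% higher in KO, the direction of Cngb3. The methods' t-test and limma with an intensity trend and robust variances also called 0 members at the stricter pair and counted 1 at an unadjusted p under 0.05. The log2 difference was above 0 for 9 of the 10 genes, against 50.5% of the tested probes, and its median over the genes was 0.24, against 0.0023 over all tested probes. Leaving out HZ replicate 1 brought this median to 0.0040, and leaving out HZ replicate 3 to 0.48. Of the 17 tested probes of these genes, 16 had a difference above 0. Some probes read the same gene, and most of the genes rose and fell together over the arrays. These counts are therefore not counts of independent observations.

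The main feature of the cone genes was their spread between arrays with the same label, which some marker lists of other cells matched. Opn1sw, Opn1mw, Arr3, Gnat2, Pde6c, Pde6h and Cnga3 went up and down together by 3.75- to 5.48-fold across the 4 HZ arrays, while Gnb3, Gngt2 and Cngb3 varied by 1.33- to 1.83-fold. In bulk RNA, fewer cones on an array and less RNA per cone cannot be told apart. In the accounts that follow, values are listed in the order of replicates 1 to 4.

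**Figure D1:**
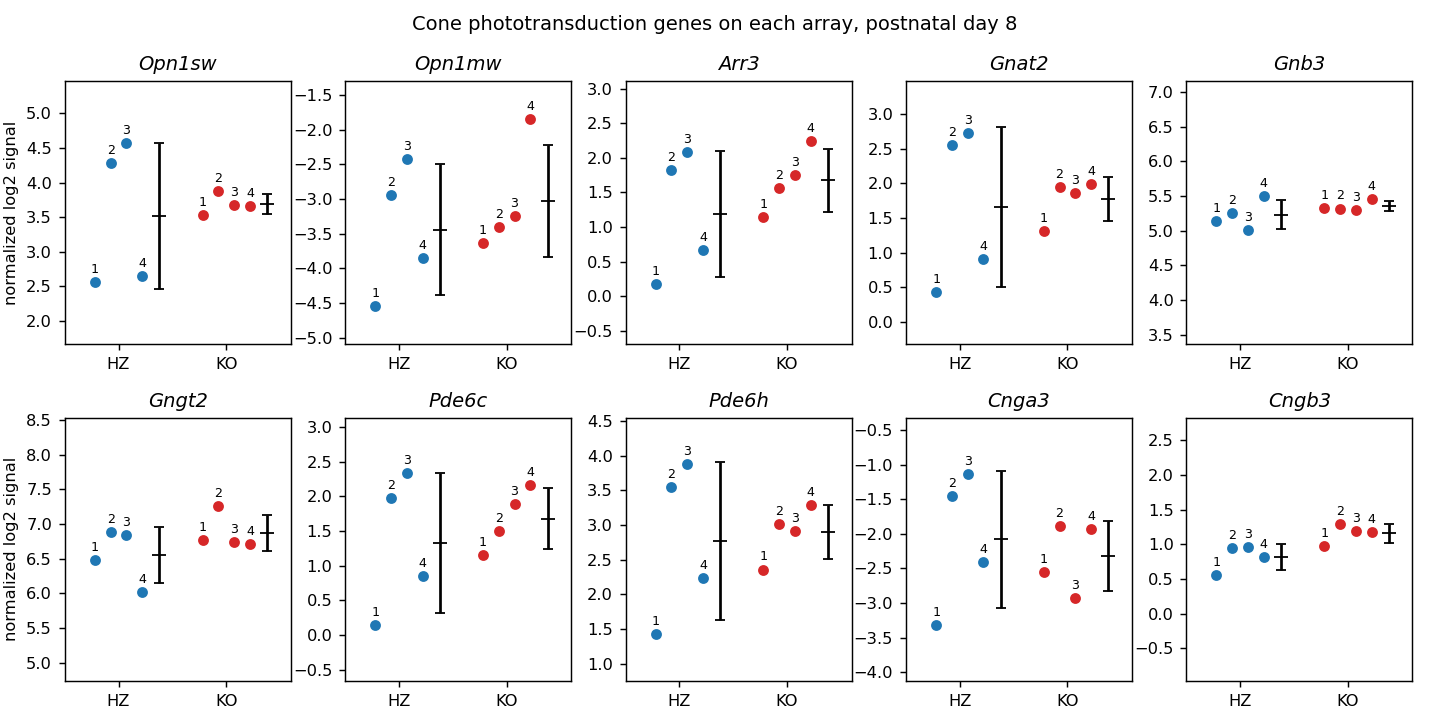
Normalized log2 signal of the main probe of each cone gene (vertical axis, log2 signal minus the array's 75th percentile, each panel spanning the same number of log2 units) on the 4 HZ arrays (blue) and the 4 KO arrays (red), labelled by replicate number, with mean and SD as black bars. Replicates 2 and 3 lie above replicates 1 and 4 among the HZ arrays for 9 of the 10 genes, and Cngb3 is the only gene whose genotypes do not overlap.

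Opn1sw encodes the short-wave cone opsin, the light receptor of the cones that sense ultraviolet and blue. Its main probe had a normalized log2 signal of 2.56, 4.28, 4.57 and 2.66 on the HZ arrays and of 3.54, 3.88, 3.68 and 3.66 on the KO arrays. All KO arrays lay inside the HZ range, between a high pair, HZ replicates 2 and 3, and a low pair, HZ replicates 1 and 4. The HZ arrays spanned 4.04-fold and the KO arrays 1.27-fold. The difference between genotypes was 0.17 (standard error 0.46, 95% interval -0.89 to 1.24, limma adjusted p = 0.923). A second probe of Opn1sw showed the same order among the HZ arrays, with -2.42, -0.53, -0.13 and -2.18, against -1.52, -0.80, -1.04 and -0.99 on the KO arrays.

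Opn1mw encodes the medium-wave opsin, which in the mouse is strongest in dorsal cones. The main Opn1mw probe had a normalized log2 signal of -4.55, -2.95, -2.42 and -3.86 on the HZ arrays and of -3.63, -3.40, -3.24 and -1.84 on the KO arrays. The HZ arrays fell into the same high and low pairs as for Opn1sw, and KO replicate 4 was the highest of all 8 arrays. The difference was 0.41 (standard error 0.54, 95% interval -0.82 to 1.65, limma adjusted p = 0.834), and 0.019 without KO replicate 4. A second Opn1mw probe was well above background on 3 arrays only, HZ replicates 2 and 3 and KO replicate 4, and was not tested.

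Because both opsins moved with the array, the log2 signal of Opn1mw minus that of Opn1sw was taken on each array and centred on its mean, a comparison added after the values were seen. It was -0.27, -0.38, -0.16 and 0.33 on the HZ arrays and -0.33, -0.45, -0.076 and 1.34 on the KO arrays. In both genotypes replicate 4 was highest for the medium-wave opsin relative to the short-wave opsin. The genotypes differed by 0.24, with a two-sided exact permutation p of 0.743 over 70 splits, where the smallest p possible is 0.0286.

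Arr3 encodes cone arrestin, which binds activated cone opsin and ends its signal. The main Arr3 probe had a normalized log2 signal of 0.17, 1.83, 2.08 and 0.67 on the HZ arrays and of 1.14, 1.56, 1.75 and 2.24 on the KO arrays. HZ replicate 1 was the lowest and KO replicate 4 the highest of the 8 arrays. The difference of 0.49 was the largest among the main probes of the cone genes (standard error 0.44, 95% interval -0.53 to 1.51, limma adjusted p = 0.770). It stayed above 0 whichever array was left out, from 0.15 when HZ replicate 1 was dropped to 0.79 when HZ replicate 3 was. Without HZ replicate 2 the difference was 0.70, with a limma adjusted p of 0.487, so that Arr3 then passed the looser pair of thresholds. Leaving out that array raised the calls over all probes as well, to 373 higher and 1361 lower, against 78 and 279 with all arrays. A second Arr3 probe differed by 0.52. Opn1mw and Arr3 are on the X chromosome, and Xist, the RNA of the inactive X, was at -6.50, -7.84 and -7.83 on HZ replicate 4, KO replicate 1 and KO replicate 4 and between 0.93 and 1.37 on the other arrays. A probe of Eif2s3y, a gene of the Y chromosome, was at 1.14, 1.46 and 1.97 on those 3 arrays and below -7.4 on the others. These 3 arrays thus had the pattern of males, and sex was not balanced between the genotypes. On them Arr3 was 0.67, 1.14 and 2.24 and Opn1mw was -3.86, -3.63 and -1.84. The part of sex in the cone values was not tested.

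Transducin, the G protein of the cascade, is built from the products of 3 cone genes. Gnat2 encodes its alpha subunit, which binds GTP. The Gnat2 probe had a normalized log2 signal of 0.43, 2.56, 2.72 and 0.91 on the HZ arrays and of 1.31, 1.95, 1.86 and 1.99 on the KO arrays. All KO arrays lay between the high and the low HZ pair. The difference was 0.12 (standard error 0.52, 95% interval -1.07 to 1.32, limma adjusted p = 0.955).

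Gnb3, the beta subunit of cone transducin, also serves ON bipolar cells. Its probe had a normalized log2 signal of 5.13, 5.26, 5.02 and 5.51 on the HZ arrays and of 5.33, 5.32, 5.30 and 5.46 on the KO arrays. HZ replicate 3, where most cone genes were highest, was lowest for Gnb3, and HZ replicate 4 was highest. The difference was 0.12 (standard error 0.12, 95% interval -0.15 to 0.39, limma adjusted p = 0.779).

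Gngt2 encodes the gamma subunit. On its main probe the normalized log2 signal was 6.48, 6.89, 6.84 and 6.02 on the HZ arrays and 6.77, 7.26, 6.74 and 6.71 on the KO arrays. HZ replicates 2 and 3 were again above replicates 1 and 4, but by less than for Gnat2, and KO replicate 2 stood above the other KO arrays. The difference was 0.31 (standard error 0.22, 95% interval -0.18 to 0.81, limma adjusted p = 0.718), and 0.048 by a second Gngt2 probe.

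Pde6c encodes the catalytic subunit of cone phosphodiesterase. The main Pde6c probe gave a normalized log2 signal of 0.14, 1.98, 2.33 and 0.85 on the HZ arrays and of 1.16, 1.502, 1.89 and 2.17 on the KO arrays. The KO arrays lay within the HZ range. The difference was 0.36 (standard error 0.48, 95% interval -0.75 to 1.46, limma adjusted p = 0.841), and 0.18 by a second probe.

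Pde6h encodes the inhibitory subunit that holds the enzyme back in the dark. The main Pde6h probe had a normalized log2 signal of 1.42, 3.54, 3.88 and 2.24 on the HZ arrays and of 2.36, 3.01, 2.92 and 3.29 on the KO arrays. The HZ arrays spanned 5.48-fold, the widest range of the 10 genes, and the KO arrays lay inside it. The difference was 0.12 (standard error 0.52, 95% interval -1.08 to 1.33, limma adjusted p = 0.955), and 0.16 by a second probe.

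Cnga3 encodes the subunit that forms the cone channel together with Cngb3. Its main probe had a normalized log2 signal of -3.32, -1.46, -1.13 and -2.41 on the HZ arrays and of -2.56, -1.89, -2.92 and -1.93 on the KO arrays. It followed the other genes on the HZ arrays but not on KO replicate 3, which was its lowest KO array. Cnga3 was the only member whose main probe was lower in KO on average, with a difference of -0.24 (standard error 0.48, 95% interval -1.35 to 0.86, limma adjusted p = 0.892). Its probes disagreed. A second probe, matched to another transcript of Cnga3, was flat on the HZ arrays at -3.62, -3.77, -3.69 and -3.84, spread from -4.04 to -2.92 on the KO arrays, and differed by 0.17.

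Cngb3 encodes the modulatory subunit of the channel and was the only member whose genotypes did not overlap, against 6.33% of the tested probes. Its main probe had a normalized log2 signal of 0.56, 0.94, 0.97 and 0.82 on the HZ arrays and of 0.97, 1.30, 1.19 and 1.18 on the KO arrays. The highest HZ array, 0.966, was next to the lowest KO array, 0.973. The difference was 0.34, or 1.27-fold (standard error 0.12, 95% interval 0.06 to 0.62, limma adjusted p = 0.538), with KO above HZ in 4 of 4 replicate numbers. Over the alternatives the adjusted p of Cngb3 lay between 0.314 and 0.902. The difference fell to 0.075 with normexp background correction. A second Cngb3 probe had a difference of 0.019 (standard error 0.14), with KO above HZ in 2 of 4 replicate numbers.

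**Figure D2:**
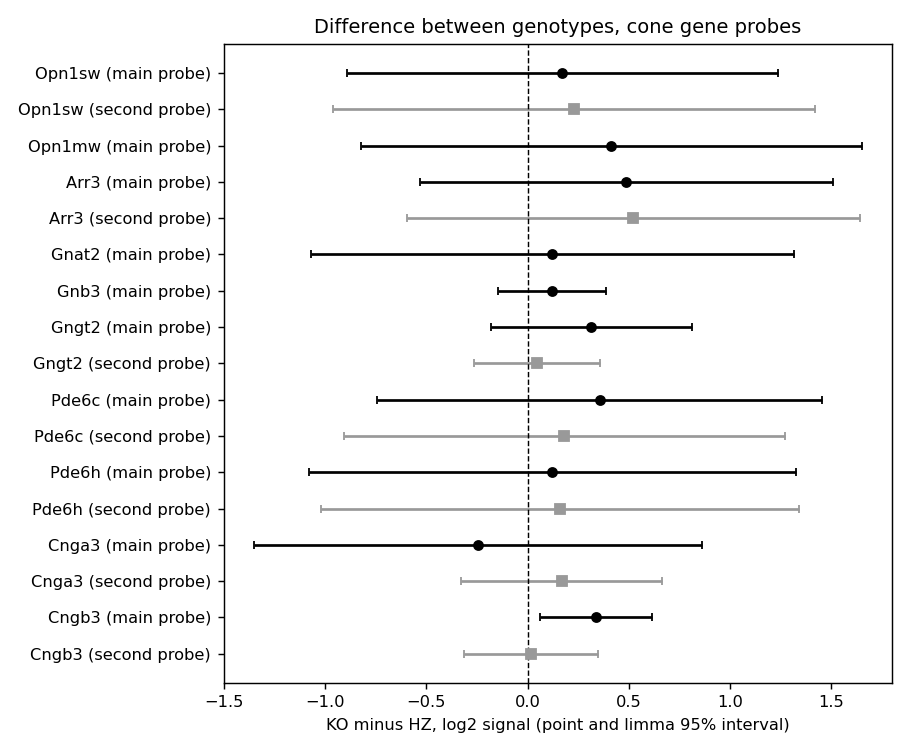
KO minus HZ difference in log2 signal (horizontal axis) with its limma 95% interval for each of the 17 tested probes of the cone genes, main probes as black circles and second probes as grey squares. The intervals of all probes include 0 except that of the main Cngb3 probe, 0.06 to 0.62, and those of the 7 widely varying genes reach from -1.35 to 1.65.

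The plot of differences by probe shows how the spread set the precision. For Opn1sw, Opn1mw, Arr3, Gnat2, Pde6c, Pde6h and Cnga3 the 95% intervals of the main probes ran from -1.35 to 1.65, which is 0.392- to 3.15-fold, with standard errors of 0.44 to 0.54. For Gnb3, Gngt2 and Cngb3 the standard errors were 0.12 to 0.22.

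The pooled SD within the genotypes was 0.72 to 0.88 on the log2 scale for the 7 genes, between the 94.5th and the 97.3rd percentile of all tested probes, whose median SD was 0.21. It was 0.16 to 0.34 for Gnb3, Gngt2 and Cngb3, between the 33.6th and the 72.6th percentile. For the 7 genes the range among the HZ arrays was at the 95.5th to the 98.2nd percentile. Among the KO arrays the range was at the 42.5th for Opn1sw, the 75.3rd for Gnat2 and the 86.1st to 97.1st for the others. The main Opn1sw probe had a mean normalized log2 signal of 3.60 and an SD of 0.75, and probes of like brightness, in 1 of 10 equal groups, had a median SD of 0.13. The SD of the dim Opn1mw probe was 0.88, beside a median of 0.29 among probes as dim. A wide spread was not particular to cone genes, whose median pooled SD was 0.77. It was 0.80 for 5 proliferation, 0.99 for 3 vascular, 0.98 for 3 red blood cell and 0.84 for 1 ganglion cell marker. Lower medians were 0.64 for pigment epithelium, 0.57 for microglia, 0.55 for Muller glia, 0.50 for bipolar, 0.49 for amacrine and 0.34 for horizontal cell markers. The division into 7 and 3 genes was made at an SD of 0.5 after the values were seen and carries no test.

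**Figure D3:**
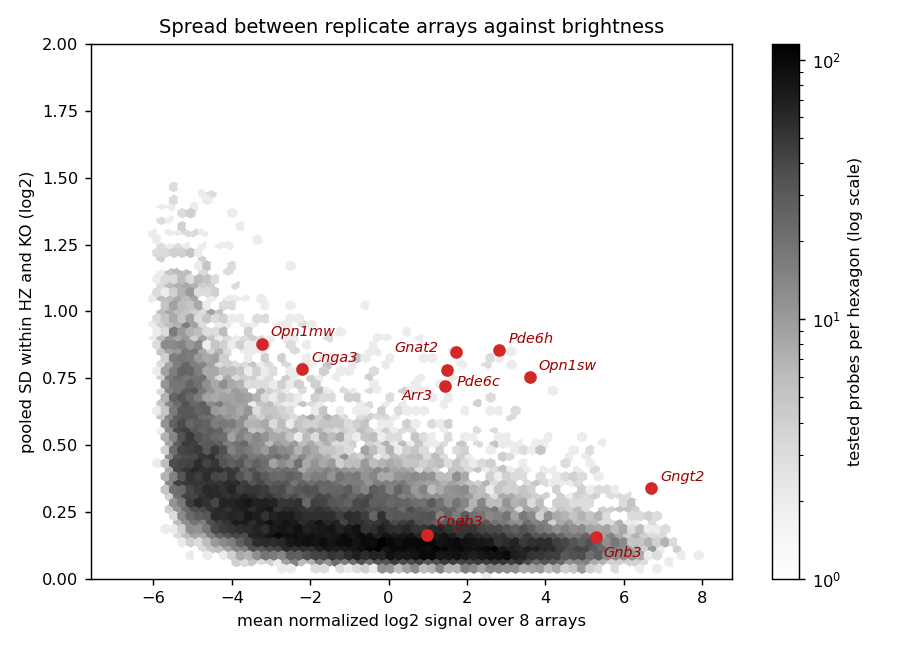
Pooled SD within HZ and KO (vertical axis, log2) against mean normalized log2 signal over the 8 arrays (horizontal axis) for 34293 tested probes in grey, darker where more probes lie, with the main probes of the cone genes in red. The other 13 tested probes had an SD of 2 or more and are not drawn. Opn1sw, Opn1mw, Arr3, Gnat2, Pde6c, Pde6h and Cnga3 sit above an SD of 0.7 at low and high signal alike, while Gnb3 and Cngb3 lie among the bulk of the probes and Gngt2 at 0.34.

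The order of the arrays was shared. HZ replicate 1 was the lowest HZ array for 8 of the 10 genes, against 19.1% of the tested probes with values on all 8 arrays, and HZ replicate 3 was the highest for 8 of 10, against 11.5%. HZ replicates 2 and 3 were both above replicates 1 and 4 for 9 of 10 genes, against 15.8% of probes. Among the KO arrays, replicate 1 was the lowest for 7 of 10, against 24.8%. The HZ range was wider than the KO range for 10 of 10, against 63.0% of probes, and the KO arrays lay within the HZ range for 6 of 10, against 26.9%. These orders were noticed in the values and are descriptions.

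Subtracting from each gene the mean deviation of the other 9 members on the same array, a step added after the values were seen, lowered the pooled SD of Arr3 from 0.72 to 0.22 and that of Pde6c from 0.78 to 0.29. The SD of Opn1sw went from 0.75 to 0.33, of Gnat2 from 0.85 to 0.34, of Pde6h from 0.85 to 0.33 and of Cnga3 from 0.78 to 0.37. Opn1mw, the gene with the high KO replicate 4, kept the most, 0.50 of 0.88. For Gnb3, Gngt2 and Cngb3 the same step raised the SD, to 0.69, 0.51 and 0.49. Subtracting a mean deviation that varies more than the gene can raise its SD whatever its order. The rise therefore does not tell whether these genes shared the order of the arrays. HZ replicates 2 and 3 were above replicates 1 and 4 for Gngt2 and Cngb3, but not for Gnb3.

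Averaged over the 10 genes, the deviation from each gene's mean was -0.96, 0.42, 0.62 and -0.52 on the HZ arrays and -0.23, 0.18, 0.053 and 0.43 on the KO arrays. Its SD was 0.76 among HZ and 0.27 among KO arrays. Replicate 1 was low in both genotypes, with HZ and KO on the same side of their group means for 10 of 10 genes, against 62.5% of probes. For replicate 4 the genotypes were on the same side for 3 of 10 genes, against 56.9%. KO was above HZ at replicates 1 and 4 and below it at replicates 2 and 3 for Opn1sw, where the differences were 0.98, -0.40, -0.90 and 1.00 at replicates 1 to 4. With the replicate number as a block, 0 members were called at either pair of thresholds, and Cngb3 had a limma adjusted p of 0.339 (difference 0.34, standard error 0.074).

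The rod genes that do the same steps did not share this swing. The 9 counterparts described here were Sag, Gnat1, Gnb1, Gngt1, Pde6a, Pde6b, Pde6g, Cnga1 and Cngb1. All 9 were tested, 3 had a difference above 0 and 6 below, 0 were called at either pair of thresholds and 1 at an unadjusted p under 0.05, against 8.17% of the tested probes, and the median was -0.046. This median was between -0.14 when HZ replicate 3 was dropped and 0.040 when KO replicate 2 was. Their pooled SD was 0.11 to 0.42. HZ replicates 2 and 3 were both above replicates 1 and 4 for 0 of the 9. The mean deviation of the rod genes was 0.20, -0.071, -0.12 and 0.21 on the HZ arrays and 0.18, -0.15, -0.22 and -0.021 on the KO arrays, so the HZ arrays that were low for cone genes were the higher ones for rod genes.

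Rod arrestin, Sag, lay between 5.55 and 5.95 on the HZ arrays and between 5.61 and 5.83 on the KO arrays. The largest rod differences were -0.73 for Gnb1 (standard error 0.26, limma adjusted p = 0.546), the beta subunit, which many other cells also use, and -0.55 for Cnga1, a rod channel subunit. Gnat1, the rod alpha subunit, differed by 0.36. These sizes rested on single arrays and on the processing. Gnb1 lay between -1.17 with normexp correction and -0.31 with the mean of its probes, and was -0.48 when KO replicate 4 was dropped. Cnga1 was -0.30 when KO replicate 3 was dropped, and Gnat1 was 0.13 with normexp correction and 0.19 when HZ replicate 3 was dropped. The others lay between -0.17 for Pde6g and 0.16 for Gngt1, with Sag at -0.072, Pde6a at -0.046, Pde6b at -0.0039 and Cngb1 at 0.092.

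**Figure D4:**
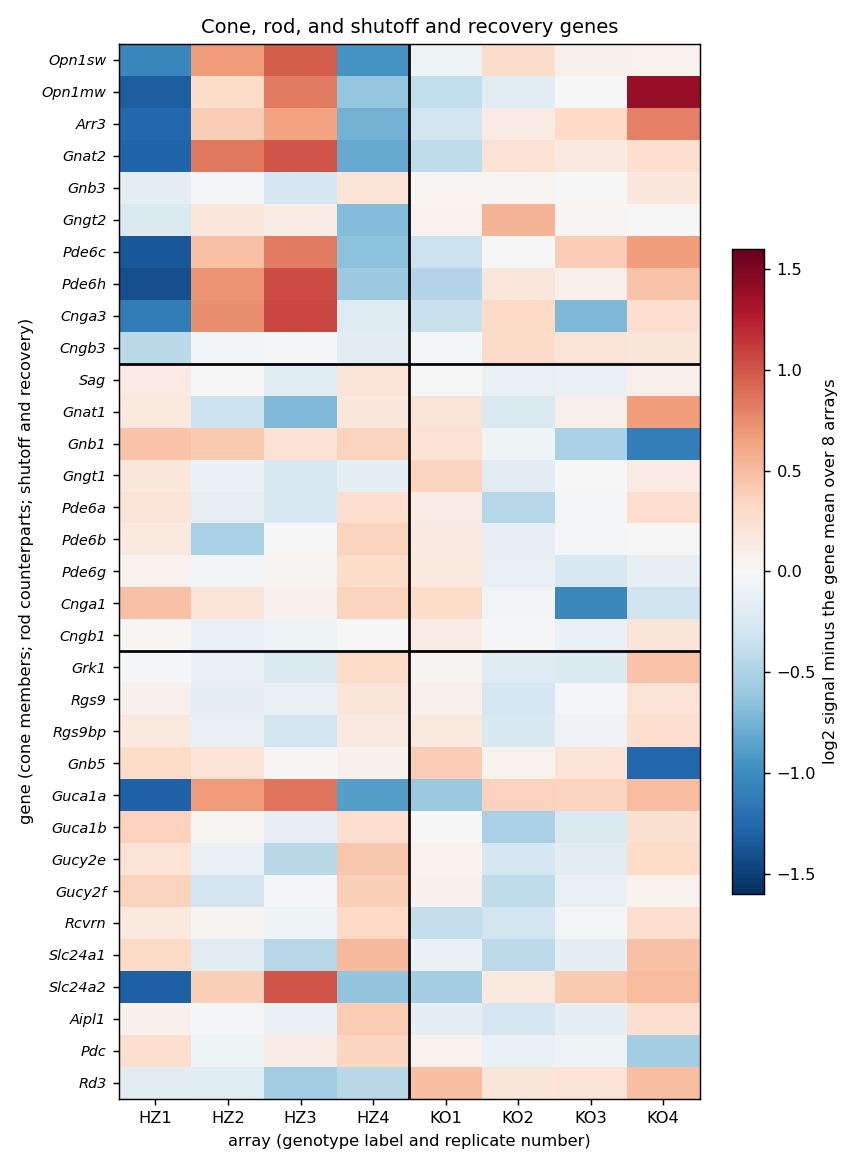
Log2 signal of each gene minus its mean over the 8 arrays (color scale, red above and blue below the mean) for the 10 cone genes, the 9 rod counterparts and 14 genes of shutoff and recovery (rows from top to bottom, separated by lines), on the 8 arrays (columns). The cone rows are blue on HZ replicates 1 and 4 and red on replicates 2 and 3 except Gnb3 and Cngb3, and among the shutoff and recovery genes Guca1a and Slc24a2 have the same pattern.

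Of 14 genes for shutoff and recovery of the light response, 14 were tested, 6 had a difference above 0 and 8 below, and the median was -0.074, which was 0.061 when HZ replicate 4 was dropped and -0.22 when HZ replicate 3 was. Guca1a, the calcium sensor that activates guanylate cyclase, had a normalized log2 signal of -1.12, 0.86, 1.04 and -0.71 on the HZ arrays and of -0.41, 0.55, 0.53 and 0.67 on the KO arrays, the pattern of the cone genes. Slc24a2, the sodium, calcium and potassium exchanger of cones, did the same with -3.42, -1.74, -1.11 and -2.74 and with -2.64, -1.95, -1.69 and -1.61. The rod exchanger Slc24a1 was between 0.044 and 1.02 on the HZ arrays and was lowest on HZ replicate 3. The kinase Grk1, Rgs9 and its anchor Rgs9bp had pooled SDs of 0.28, 0.18 and 0.22.

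Rd3, an inhibitor of retinal guanylate cyclases, was the only 1 of these 14 genes called at the looser pair of thresholds, against 1.04% of the tested probes. Its probe had a normalized log2 signal of 3.24, 3.23, 2.87 and 2.98 on the HZ arrays and of 3.90, 3.62, 3.64 and 3.90 on the KO arrays. These did not overlap, which held for 6.33% of the tested probes. The difference was 0.68 (standard error 0.12, limma adjusted p = 0.328), and it did not pass the stricter thresholds. Without HZ replicate 1, HZ replicate 3, KO replicate 3 or KO replicate 4, 0 probes on the array were called higher at the looser thresholds, so the call of Rd3 was lost. The next largest differences of the list were -0.33 for Pdc, phosducin, which binds transducin beta and gamma, and 0.32 for Guca1a.

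By the median pooled SD, the regulators of cone fate and of opsin choice varied less than the genes of the cascade, at 0.18 against 0.77. The list also holds factors that are not limited to cones, such as Crx and Nrl. Of 17 listed, 14 were tested, 9 had a difference above 0 and 5 below, 0 were called at either pair of thresholds, and the median was 0.046, or -0.0063 with quantile normalization and -0.015 when HZ replicate 4 was dropped. Thrb, the thyroid hormone receptor needed for the medium-wave opsin, lay between 1.26 and 1.51 on all 8 arrays. Its partner Rxrg was at 2.39, 2.73, 2.87 and 1.99 on the HZ arrays and at 2.54, 2.95, 2.51 and 2.06 on the KO arrays. Rxrg was lowest on replicate 4 in both genotypes, where Opn1mw was highest relative to Opn1sw. Crx and Otx2, the homeodomain activators of photoreceptor genes, lay between 6.85 and 7.23 and between 6.80 and 7.02. Otx2 was 6.80 to 6.91 on the HZ arrays and 6.93 to 7.02 on the KO arrays, a difference of 0.12 with a limma adjusted p of 0.693. Sall3, a zinc finger factor of cones, swung with the cascade at -5.10, -2.79, -2.68 and -4.07 on the HZ arrays. It lay between -3.99 and -3.53 on the KO arrays, and its pooled SD was 0.82.

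The largest differences among the regulators were 0.52 for Nr2f2 (standard error 0.13, limma adjusted p = 0.407), an orphan nuclear receptor, -0.24 for Neurod1 and -0.19 for Nr2e3, which represses cone genes in rods. Nr2f2 was between 0.81 and 1.104 on the HZ arrays and between 1.32 and 1.82 on the KO arrays. Of the 14 tested regulators 3 did not overlap between genotypes, Nr2f2, Otx2 and Neurod1, against 6.33% of the tested probes. Nrl, the factor that sets rod fate, differed by -0.015.

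The genes most like the cone cascade were sought among 14734 genes by Pearson's r with the mean cone deviation over the 8 arrays, as a description. The first 5 included Ccdc33 (r = 0.987), Kcne2 (r = 0.978), Guca1a (r = 0.977) and Syndig1l (r = 0.971). Ccdc33 was dim, between -5.39 and -3.97, and well above background on 7 of 8 arrays. Syndig1l was also dim, between -4.49 and -2.10. Kcne2, a potassium channel accessory subunit on the list of other cone-enriched genes, had a normalized log2 signal of -1.35, 0.62, 1.14 and -0.83 on the HZ arrays and of -0.64, 0.13, -0.0045 and 0.38 on the KO arrays. That list shares Thrb, Rxrg and Sall3 with the regulators and Slc24a2 with the shutoff and recovery genes, so these values count in both. All of its 8 genes were tested, and 7 had a difference above 0 and 1 below. At either pair of thresholds 0 were called, and the median difference was 0.10. It was 0.0041 when HZ replicate 1 was dropped and 0.21 when HZ replicate 2 was. HZ replicates 2 and 3 were both above replicates 1 and 4 for 6 of the 8, Kcne2, Ccdc136, Otop3, Rxrg, Sall3 and Slc24a2. Clca3a1 had the reverse order, with 5.28, 4.95, 4.76 and 5.69 on the HZ arrays. Thrb varied little there, from 1.26 to 1.42. The mean deviation of all 8 genes was -0.59, 0.26, 0.46 and -0.39 on the HZ arrays and -0.14, 0.24, 0.13 and 0.033 on the KO arrays.

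Markers of other cells moved between the same arrays. Proliferation genes, of which 5 of 6 were tested, had a mean deviation of -0.69, 1.07, 0.45 and -0.64 on the HZ arrays and of -0.45, 0.62, -0.090 and -0.28 on the KO arrays, and 4 of the 5 had HZ replicates 2 and 3 above replicates 1 and 4. The same held for 7 of 9 tested Muller glia markers, with mean deviations of -0.23, 0.66, 0.19 and -0.036 on the HZ arrays, and for 5 of 12 bipolar markers, with -0.22, 0.78, 0.043 and -0.098. These lists were highest on HZ replicate 2, whereas the cone genes were highest on HZ replicate 3. Their part in the cone values was not tested.

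Between genotypes the medians were -0.34 for the bipolar, -0.27 for the Muller glia and -0.13 for the proliferation list, but 0.0020, 0.092 and 0.26 without HZ replicate 2. With quantile normalization the proliferation median was 0.078. The RPE list, for the retinal pigment epithelium, had a median of -1.68, with 12 of 12 tested genes below 0 and mean deviations of 0.037 to 1.44 on the HZ arrays and of -1.59 to -0.16 on the KO arrays. The microglia list had a median of 0.81, with 9 of 9 above 0. Of the other markers, 3 of 5 horizontal cell, 4 of 7 amacrine, 1 of 7 ganglion cell, 3 of 6 vascular and 3 of 5 red blood cell genes were tested, with medians of 0.18, -0.032, -0.80, -0.0054 and 1.58. The horizontal, amacrine and vascular medians also changed sign with single arrays left out. Unlike the cone genes, the RPE list was highest on HZ replicate 1 and lowest on KO replicate 4.

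**Figure D5:**
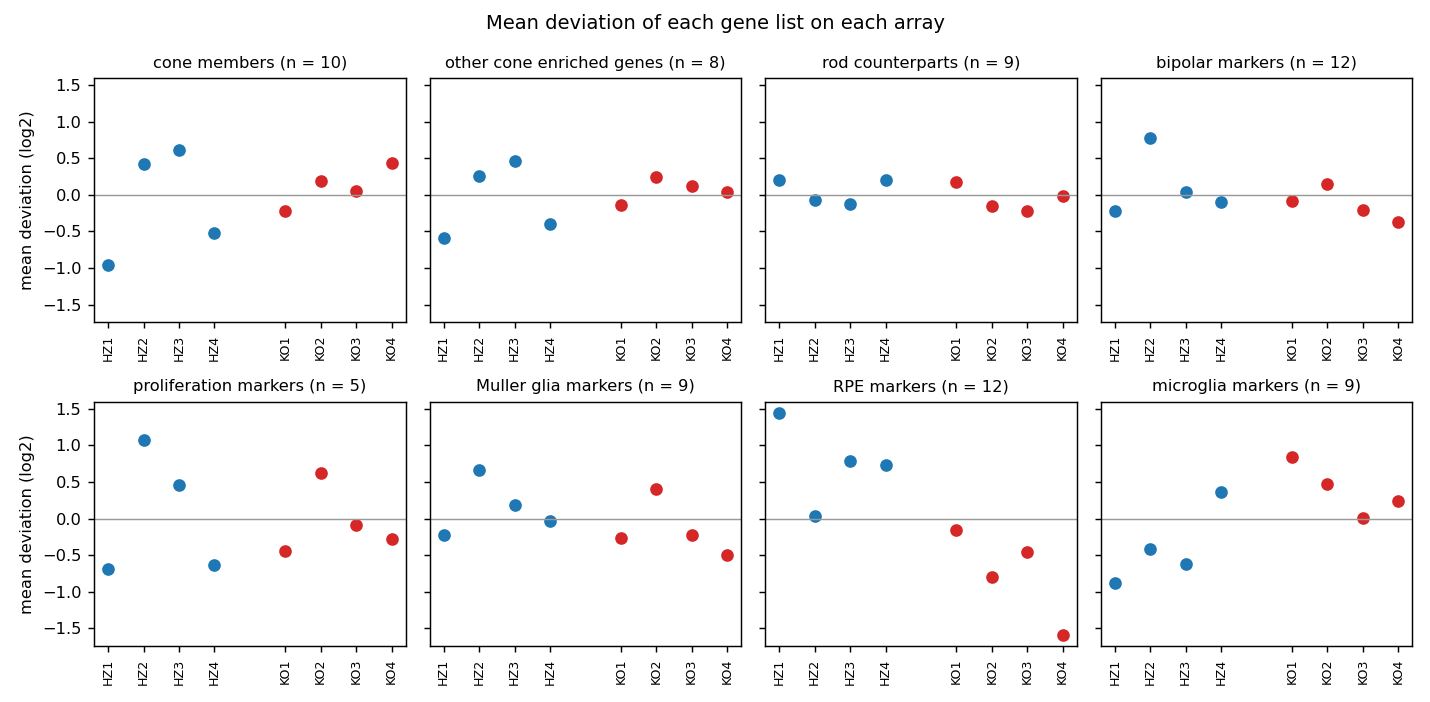
Mean deviation of the tested genes of each list from their own means over the 8 arrays (vertical axis, log2) on the HZ arrays (blue) and the KO arrays (red), with the number of genes in each panel title. The cone genes range from -0.96 to 0.62 on the HZ arrays and from -0.23 to 0.43 on the KO arrays, the rod counterparts from -0.12 to 0.21 and from -0.22 to 0.18, and the proliferation markers share the low HZ replicates 1 and 4.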

How the data were processed

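Gene expression of isolated photoreceptor cells was measured on 8 single-color arrays. The authors deposited scanner output of Agilent Feature Extraction 10.7.1.1 (version per the submitters' processing notes), in which each spot has a signal intensity already corrected for background, and their own log2 values from GeneSpring, shifted by the 75 percentile. These proved to be centred on each probe's median over the arrays (100% of tested probes within 0.001), ran in the same direction as the scanner values (slope 0.996, centred) and served as an alternative. Their column medians were -0.065, -0.012, -0.027 and 0.20 for HZ replicates 1 to 4 and -0.010, 0.061, -0.019 and 0.033 for KO replicates 1 to 4.

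The intensities were put on the log2 scale and the 75th percentile of the 59305 non-control spots of the array was subtracted, with outlier spots left out. That percentile lay between 882 and 1024 intensity units, and the number of arrays limits the precision. Tested were probes with at least 3 values in each group that were well above background on 4 or more arrays, with limma 3.58.1 in R 4.3.3, two-sided, with Benjamini-Hochberg adjustment over all 34306. Data were read with jsonlite 2.0.0 and data.table (version 1.17.8), and summaries and plots made in Python 3.11.15 with pandas 2.3.3, numpy 2.4.6, scipy 1.17.1 and matplotlib 3.10.9. RefSeq accessions matched to a list of GRCm38.p6 genes named 32994 probes. A gene's main probe is the one with the highest mean. Scripts were tested on simulated data. Both pairs of thresholds come from the methods, which do not tie either pair to the photoreceptor arrays. Named are all cone and rod counterpart genes, Lpcat1, Nt5e, up to 3 genes with the largest differences of a list where a result turns on them, and the 5 genes most like the cone genes. Guca1a, Slc24a2, Slc24a1, Grk1, Rgs9, Rgs9bp, Thrb, Rxrg, Crx, Otx2, Sall3, Nrl, Kcne2, Otop3, Xist and Eif2s3y were singled out after their values were seen. Some genes that this rule takes in are not reported here. The members and lists were chosen with earlier results of these data known.

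Same-numbered HZ and KO arrays deviated together (r of 0.172 to 0.337 in 4 of 4 pairs, above the minimum of 0.1, against -0.337 to 0.117 between different numbers). The numbers are also slide columns, so a pairing of samples and an effect of the column cannot be told apart. The replicate block was therefore an alternative, and the members' intervals come from the fit without it. Alternatives were quantile normalization, normexp (offset 50), a percentile over detected probes, other filters, the methods' t-test, trend and robust variances, the replicate block, the mean of a gene's probes, the authors' values and each array left out.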

Additional observations from a re-analysis of the deposited data

Results flagged for a closer look

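Of 88 groups of 4 arrays checked for a sample far from the others, 3 held one, where chance gives about 1 in 20, or 4.4. The main Gngt2 probe had a normalized log2 signal of 7.26 on KO replicate 2, against 6.71 to 6.77 on the other KO arrays. Nt5e, which encodes CD73, was at 4.05 on KO replicate 1, against 4.25 to 4.29 on the other KO arrays. The mean deviation of the red blood cell markers was 0.26 on HZ replicate 1, against -1.23 to -1.04 on the other HZ arrays.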

How the results depend on the processing

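At the stricter thresholds 0 members were called under each of the 18 alternatives. At the looser ones the count was 0 under all of them except without HZ replicate 2, so that it lay between 0 and 1 with arrays left out. Without HZ replicate 2, 373 of all probes were called higher and 1361 lower. The median difference of 0.24 lay between 0.16 and 0.26 under the other alternatives and between 0.0040 and 0.48 with arrays left out. With arrays left out the difference of Opn1sw ranged from -0.15 to 0.52, of Gnat2 from -0.29 to 0.48, of Pde6c from -0.038 to 0.69, of Pde6h from -0.33 to 0.49, of Cnga3 from -0.66 to 0.071, of Pde6a from -0.15 to 0.099, of Pde6b from -0.18 to 0.11 and of Lpcat1 from -0.097 to 0.022, and each changed sign. Lpcat1 was also above 0 with normexp correction, at 0.0049, and Pde6b with the authors' values, at 0.013. The count of members at an unadjusted p under 0.05, 1, was 0 with normexp correction, with the mean of a gene's probes, without HZ replicate 1 and without KO replicate 2. The cause was not tested.

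Over all probes, limma called 78 higher and 279 lower at the looser thresholds, 254 and 913 under the replicate block, 9 and 32 with dim probes kept, and 0 to 373 and 0 to 1361 with arrays left out, most without HZ replicate 2. At the stricter ones the counts of 0 and 0 became 4 and 13 with normexp correction, 1 and 1 with quantile normalization, 1 and 2 with trend and robust variances, and 2 and 0 with the methods' t-test. Quantile normalization gave 178 lower at the looser thresholds. The replicate block changed no call of a member. The spread of the cone genes was also computed under each scaling, a comparison added after the values were seen. Their median pooled SD of 0.77 lay between 0.65 with normexp correction and 0.78 with the authors' values, and was 0.60 without HZ replicate 1. The HZ range of the 7 widely varying genes began at 1.91 on the log2 scale, above the 0.87 that Gnb3, Gngt2 and Cngb3 reached, but with normexp correction it began at 1.21 and the other 3 genes reached 1.22, so that the division overlapped.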
